A study of Mus musculus with 12 samples.

Results

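Vcam1, Tgtp1, Lbp, Tnfaip3 and Birc3, 5 genes of inflammatory and innate immune responses, were followed in MEC cells exposed to BMP6. The 5 were taken by name, with responses already seen in these arrays in view, and are 5 of 8267 genes that a named probe measured. Birc3 has 2 probes, which were averaged, and each of the others has 1. MECs are mouse intraembryonic endothelial cells, kept as a line, and BMP6 is a secreted bone morphogenetic protein that signals through Smad transcription factors. The 12 two-colour arrays made up 4 groups of 3: mock-treated controls, and BMP6 exposure of 4, 12 or 24 h. The labels call the replicates biological and independent, and give neither a BMP6 dose nor a time for the controls. The control, 4, 12 and 24 h groups each hold replicate numbers 1 to 3 in their titles, and differences below are taken between arrays of the same number. All 3 comparisons with control use the same 3 control arrays.

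Levels are log2 ratios of the cells' RNA to a common mouse reference RNA, so 0 means as much signal as in the reference and 1 a doubling of it. They show how a gene moves between arrays and not which of several genes is more abundant. No source used here states the log base or the sign of the deposited ratios. Base 2 was assumed, and the dyes in the labels (Cy5 for cells, Cy3 for reference) gave the direction. With the opposite sign every fall below would be a rise, and with natural logs the folds would be larger. Gene names rest on a reordering of probe positions inferred from agreement between probes of the same gene (Pearson r = 0.471 across 1831 genes with several probes, against 0.021 in the deposited order, genes not being independent replicates). Spot brightness was not analysed here, so no statement is made on detection. In bulk RNA, fewer expressing cells and less RNA per cell cannot be told apart.

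Endothelial cells answer inflammatory signals mainly through NF-kB, a family of transcription factors held in the cytoplasm by inhibitor proteins until a cytokine or a bacterial product releases it. Vcam1 and Birc3 are textbook NF-kB targets, as is Tnfaip3, whose product feeds back to end NF-kB signalling. Tgtp1 belongs to the interferon-induced GTPases that act against parasites inside cells. Lbp encodes a secreted acute-phase protein, made chiefly in liver, that carries bacterial lipopolysaccharide to its receptor complex.

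RefSeq's promoter table (GRCm38.p6) held entries for 3 of the 5, Tgtp1, Tnfaip3 and Birc3, and the 250 bases before the start of transcription were searched on both strands. Those of Tgtp1 and Tnfaip3 are shown because they carry the letters of the interferon and NF-kB motifs that their roles are known for. In the Tgtp1 window, chr11:48992247-48992496 on the minus strand, the capitals mark the gamma-activated site (TTCNNNGAA, bases -88 to -80 from the start) and the core of the interferon-stimulated response element (GAAANNGAA, bases -77 to -69). In the Tnfaip3 window, chr10:19015411-19015660 on the minus strand, they mark matches to the NF-kB consensus at bases -125 to -116 and -12 to -3, the first of which reads as a match on either strand.
Tgtp1: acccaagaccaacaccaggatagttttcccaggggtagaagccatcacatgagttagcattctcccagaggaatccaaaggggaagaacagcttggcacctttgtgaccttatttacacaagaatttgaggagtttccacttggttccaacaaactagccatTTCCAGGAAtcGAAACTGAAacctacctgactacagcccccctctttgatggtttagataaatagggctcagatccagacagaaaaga
Tnfaip3: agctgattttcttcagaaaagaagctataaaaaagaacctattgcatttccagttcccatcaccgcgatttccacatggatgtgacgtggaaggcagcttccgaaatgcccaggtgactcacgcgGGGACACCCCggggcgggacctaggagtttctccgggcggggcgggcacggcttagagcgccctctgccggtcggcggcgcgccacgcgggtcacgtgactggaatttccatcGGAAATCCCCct

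Matches to these motifs are not rare. Of 32851 promoter windows of the same length, 7.25% held an NF-kB match, 7.13% the interferon-stimulated element and 7.02% the gamma-activated site. The Tgtp1 window also held the Smad-binding letters CAGAC once, as did 42.2% of all windows, and the Tnfaip3 window held TATAAA once, as did 12.4%. Neither held GGCGCC, a letter string of BMP Smad elements that 9.59% of windows carry. The Birc3 window and the window at a second annotated start of Tnfaip3 held none of the 6 motifs. A match describes the letters of the window and is not a bound site.

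Tgtp1 was lower than control at every time, and Vcam1 and Lbp were lowest at 12 h. Tnfaip3 was higher at 4 h and back near the control level by 24 h. The averaged Birc3 value was lower at 12 h, and that value came from 1 of its 2 probes. These responses are the ones the genes were chosen for, so they are given as a description. The counts of calls printed further on for the 5 come from the same comparisons and support nothing.

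**Figure D1:**
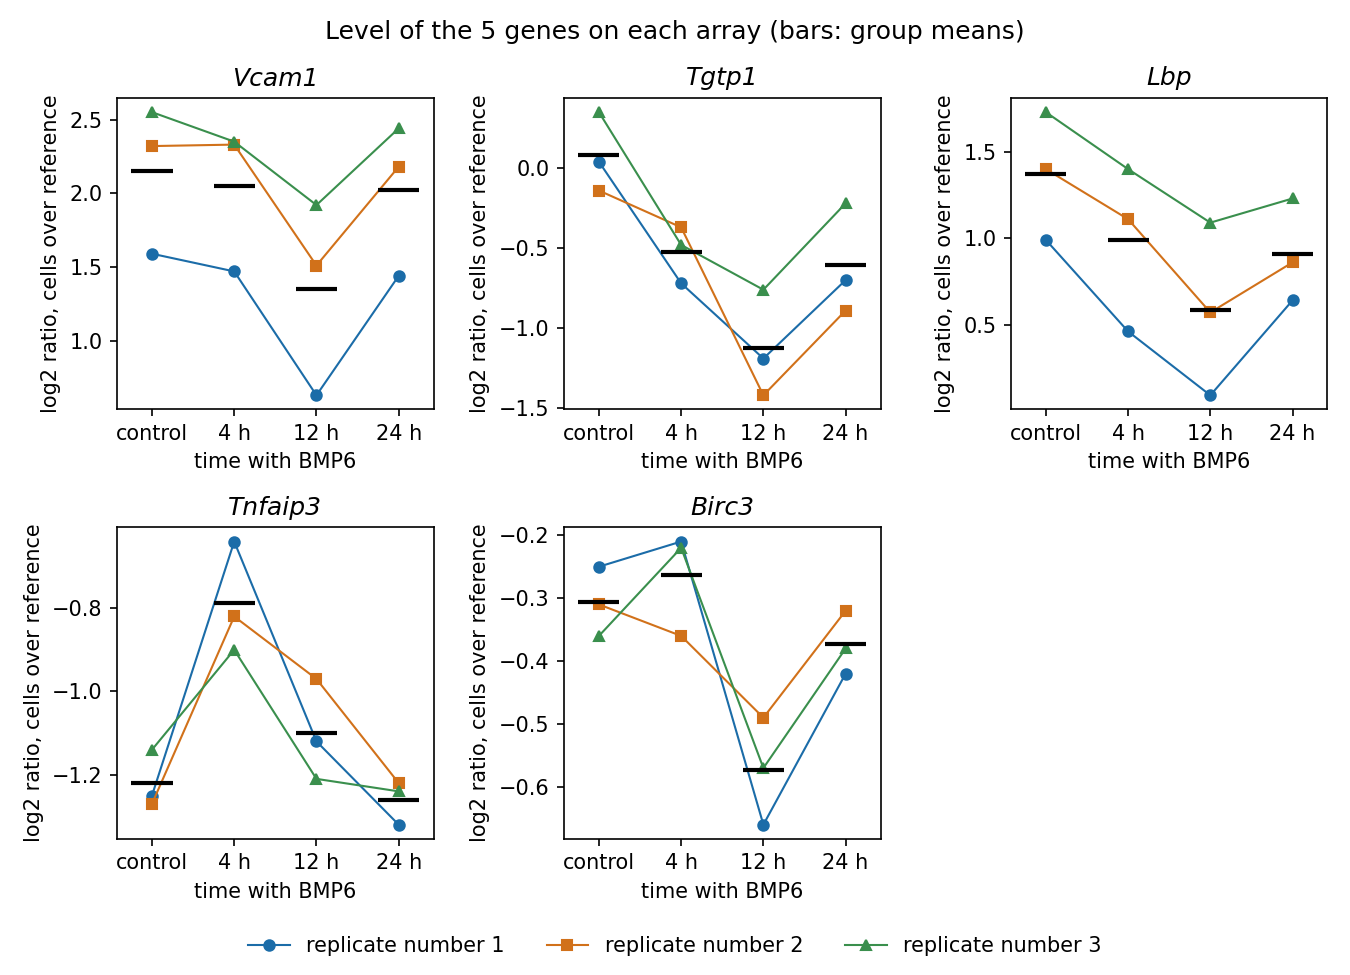
Level of each of the 5 genes on the 12 arrays, as the log2 ratio of cells to reference RNA (y axis, a different scale in each panel), in control cells and after 4, 12 and 24 h of BMP6 (x axis). Coloured lines join arrays of the same replicate number and black bars are group means. All 3 lines of Vcam1, Lbp and Tgtp1 are lowest at 12 h, and all 3 lines of Tnfaip3 are highest at 4 h.

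Vcam1 encodes the endothelial adhesion receptor that captures leukocytes through integrin alpha-4. Its levels were 1.59, 2.32 and 2.55 on the control arrays of replicate numbers 1, 2 and 3, then 1.47, 2.33 and 2.35 at 4 h, 0.63, 1.51 and 1.92 at 12 h, and 1.44, 2.18 and 2.44 at 24 h. Within every number the 12 h array was the lowest of the 4, while the 12 h and control groups overlapped because the numbers themselves lay far apart. At 12 h the level was 0.57 times that of control, a log2 difference of -0.80 ± 0.166 (SD of the 3 pairs), with pairs at -0.96, -0.81 and -0.63. From 12 to 24 h it was higher again by 0.67 ± 0.147, in 3 of 3 pairs. The differences from control at 4 h (-0.10 ± 0.105) and at 24 h (-0.14 ± 0.0187) were small beside it. At 4 h 1 of the 3 pairs was higher.

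Tgtp1 had levels of 0.04, -0.14 and 0.35 on the control arrays, -0.72, -0.37 and -0.48 at 4 h, -1.19, -1.42 and -0.76 at 12 h, and -0.70, -0.89 and -0.22 at 24 h. No array of any BMP6 time reached the lowest control array. The difference from control was -0.60 ± 0.325 at 4 h, -1.21 ± 0.086 at 12 h and -0.68 ± 0.102 at 24 h (SD, n = 3 pairs). At 12 h the level was 0.43 times that of control, the lowest change among the 8267 genes, and at 24 h it was the second lowest by rank (rank 2). From 12 to 24 h all 3 pairs were higher, by 0.49, 0.53 and 0.55. RefSeq lists a near-copy, Tgtp2, on the same chromosome and gives that name as a synonym of Tgtp1, so signal from the 2 genes may be mixed in this probe.

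Lbp lay at 0.99, 1.40 and 1.73 on the control arrays, 0.46, 1.11 and 1.40 at 4 h, 0.09, 0.57 and 1.09 at 12 h, and 0.64, 0.86 and 1.23 at 24 h. The groups overlapped at each time, yet all 9 differences between same-numbered arrays were negative. They averaged -0.38 ± 0.128 at 4 h, -0.79 ± 0.135 at 12 h and -0.46 ± 0.101 at 24 h (SD, n = 3 pairs). The 12 h level was 0.58 times that of control, close to the value for Vcam1. At 24 h Vcam1 lay at 0.91 times its control level and Lbp at 0.73 times. Whether the 2 genes differ in this was not tested, since both were chosen for their course.

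Tnfaip3 encodes A20, the ubiquitin-editing enzyme that shuts down NF-kB signalling. Its levels were -1.25, -1.27 and -1.14 on the control arrays and -0.64, -0.82 and -0.90 at 4 h, with no overlap. The 4 h level was 1.35 times that of control, a log2 difference of 0.43 ± 0.186, with pairs at 0.61, 0.45 and 0.24. At 12 h the arrays lay at -1.12, -0.97 and -1.21, which overlaps the controls (difference 0.12 ± 0.188), and at 24 h at -1.32, -1.22 and -1.24 (-0.04 ± 0.0765). It was the only one of the 5 above control in all 3 pairs at any time.

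**Figure D2:**
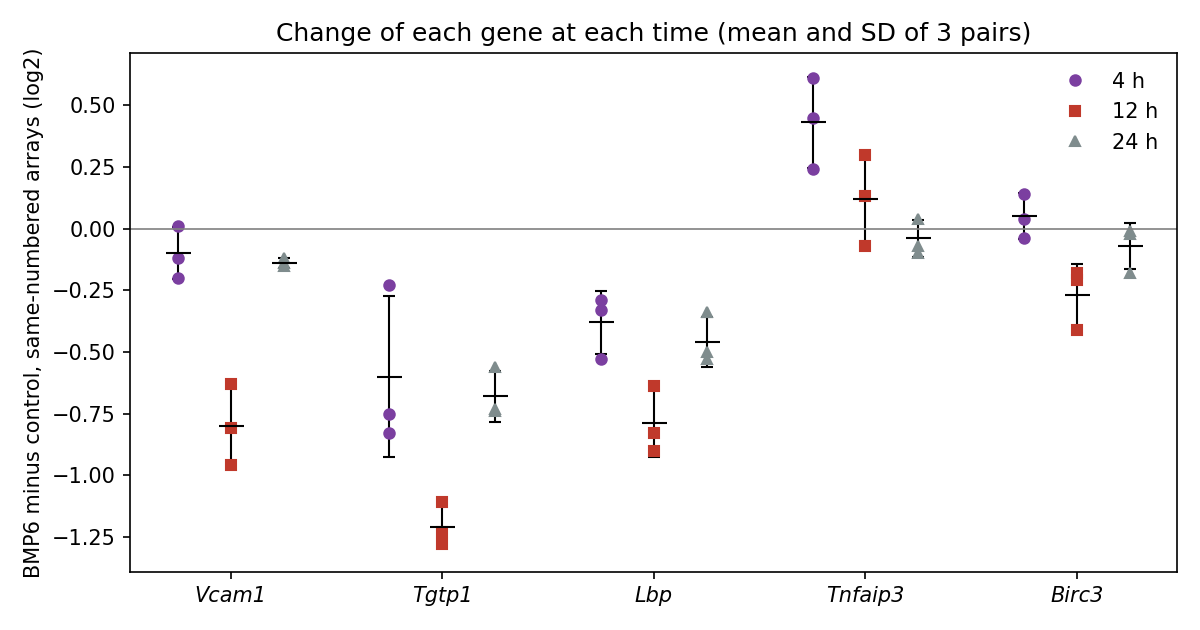
Difference between BMP6 and control arrays of the same replicate number (y axis, log2) for each gene (x axis) at 4, 12 and 24 h. Points are the 3 pairs, and the horizontal mark and bar are their mean and SD. The 12 h points of Vcam1, Tgtp1 and Lbp all lie at or below -0.63, and the 4 h points of Tnfaip3 at or above 0.24.

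Birc3 encodes cIAP2, a ubiquitin ligase of TNF receptor complexes and an inhibitor of apoptosis. The average of its 2 probes was -0.25, -0.31 and -0.36 on the control arrays, -0.21, -0.36 and -0.22 at 4 h, -0.66, -0.49 and -0.57 at 12 h, and -0.42, -0.32 and -0.38 at 24 h. The 12 h arrays lay below all controls, with a difference of -0.27 ± 0.128 (SD, n = 3 pairs).

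The 2 Birc3 probes did not move alike. The first listed probe read -0.59, -0.42 and -0.44 at 12 h, against -0.52, -0.40 and -0.57 in controls, a difference of 0.02 ± 0.103. The second read -0.73, -0.55 and -0.71 at 12 h, against 0.03, -0.22 and -0.15 in controls, a difference of -0.55 ± 0.214. From 12 to 24 h the second probe was higher by 0.41, 0.37 and 0.40 in the 3 pairs, and the first by 0.01 on average. Birc2, which encodes the close relative cIAP1 and neighbours Birc3 on chromosome 9, had 1 reading per array. It stood at -0.32, -0.37 and -0.23 at 12 h, against -0.23, -0.17 and 0.06 in controls, and its change of -0.19 did not pass in either fit described below (adjusted p 1.0 unpaired and 0.127 paired). RefSeq lists Birc2 and Birc3 as synonyms of each other, so which of them a probe of this design reads was not tested.

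**Figure D3:**
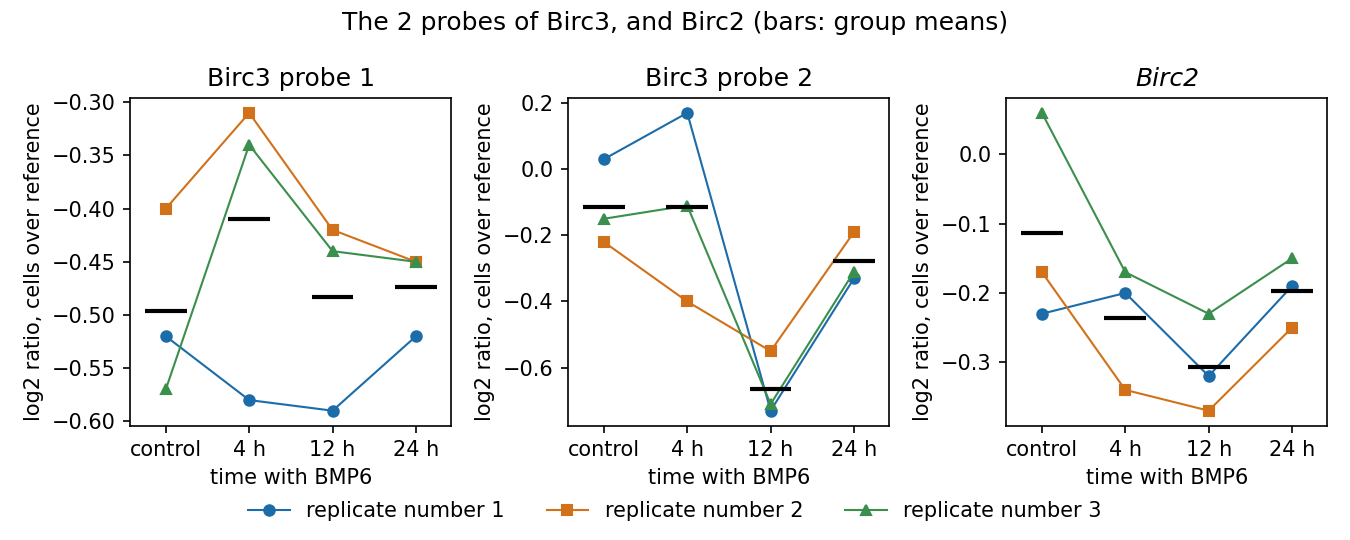
Log2 ratio of cells to reference RNA (y axis, a different scale in each panel) for the 2 probes of Birc3 and for Birc2, in control cells and after 4, 12 and 24 h of BMP6 (x axis). Lines join arrays of the same replicate number and bars are group means. The second Birc3 probe drops to a mean of -0.67 at 12 h, while the first stays near its control mean of -0.50.

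Replicate number carried much of the spread in some of the 5. For Vcam1 it held 65.0% of the sum of squares over the 12 arrays, treatment 33.3% and the remainder 1.73%. In all 4 groups number 1 was the lowest for Vcam1 and number 3 the highest, and the same held for Lbp, with shares of 56.9%, 39.8% and 3.31%. For Tgtp1 treatment held 77.3% and replicate number 14.9%. For Tnfaip3 and the averaged Birc3 value treatment held 83.8% and 80.7%, and replicate number 1.15% and 0.382%. The medians over all genes were 51.2% for replicate number, 18.9% for treatment and 22.7% for the remainder. What same-numbered arrays share is not stated in the labels.

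Relative to other genes on the array, Vcam1 and Lbp had high ratios in control cells, at percentiles 99.5 and 97.3 of the 8267 genes, with mean log2 ratios of 2.15 and 1.37. Tgtp1 stood at percentile 53.8, Birc3 at 25.8 and Tnfaip3 at 3.42, the last with a mean of -1.22. These percentiles order ratios to the reference RNA and not amounts of transcript, and with the opposite sign they would turn round.

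Tests across all genes were run with limma in a fit that ignores replicate numbers (unpaired) and in a fit with the number as a block (paired), calling a gene where p, adjusted over 8267 genes by Benjamini-Hochberg, was under 0.05. In the unpaired fit 0 of the 5 passed at 4, 12 or 24 h, where 0.169%, 0% and 0% of all genes did, and where 614, 393 and 166 genes had an unadjusted p under 0.05. In the paired fit 1 of the 5 passed as higher at 4 h (Tnfaip3, against 2.27% of all genes) and 2 as lower (Tgtp1 and Lbp, against 3.75%). At 12 h 3 of the 5 passed as lower (Vcam1, Tgtp1 and Lbp, against 1.42%) and 0 as higher (against 0.472%). At 24 h 0 of the 5 passed, against 0.0726% of genes higher and 0.0968% lower. Groups lay wholly below control for 1 of the 5 at 4 h (Tgtp1, against 6.33% of genes), 2 at 12 h (Tgtp1 and Birc3, against 4.14%) and 1 at 24 h (Tgtp1, against 2.47%), and wholly above it for 1 at 4 h (Tnfaip3, against 3.81%). Since the genes were chosen from these same comparisons, nothing is read from these counts.

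BMP6 responses elsewhere on the arrays serve as a check of the labels. Id1, Id2 and Id3, inhibitors of differentiation and direct BMP targets, were higher by 0.97, 0.84 and 0.64 at 4 h and by 1.07, 1.19 and 0.92 at 24 h, in 3 of 3 pairs each. They rose in the paired fit at 4 h (adjusted p 0.00058, 0.0059 and 0.00177) and not in the unpaired one (0.2, 0.302 and 0.274). With the opposite sign of the ratios, these 3 direct BMP targets would be lower with BMP6 than in controls. Array medians lay between -0.044 and 0.002 and correlations between arrays between 0.877 and 0.98.

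Relatives of the 5 genes were taken from 6 lists, drawn up by role: NF-kB, inhibitors of apoptosis, interferon-induced genes, lipopolysaccharide recognition, leukocyte adhesion and the acute phase. The lists were drawn up with earlier results of these data known, so their counts beside all genes are a description. With the 5 left out, 99 of 181 listed genes were measured. At 4 h 8 of the 99 rose and 0 fell in the paired fit, where 2.27% of all genes passed as higher and 3.75% as lower, and the median change was 0.012, against -0.006 over all genes. At 12 h 1 rose and 2 fell, where 0.472% of all genes passed as higher and 1.42% as lower (median -0.013, against -0.002 over all genes), and at 24 h 0 passed (-0.032, against -0.005). In the unpaired fit 1 rose at 4 h and 0 passed later.

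**Figure D4:**
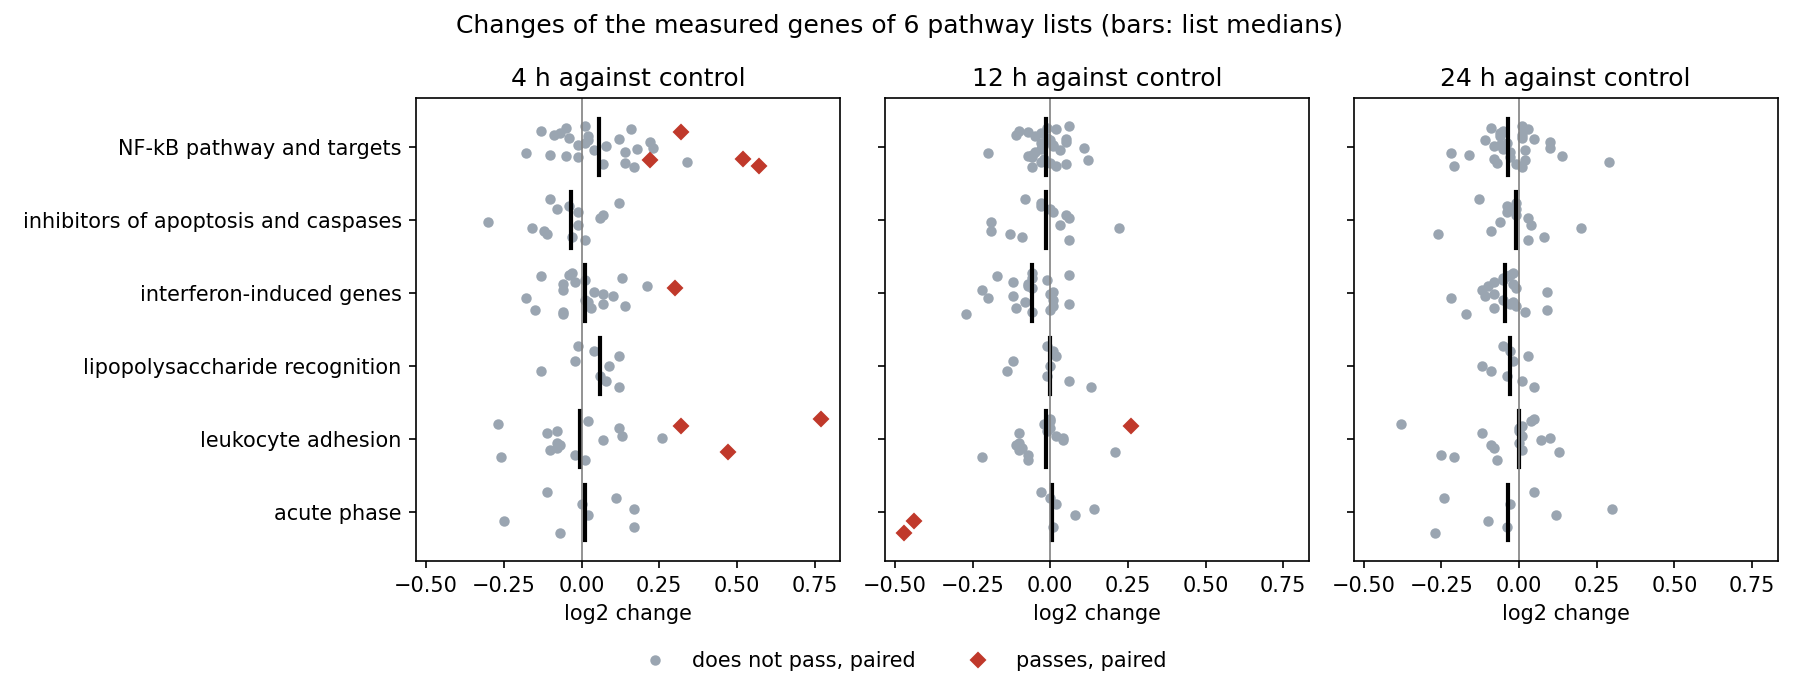
Log2 change from control at 4, 12 and 24 h (x axes) of every measured gene of the 6 lists (rows), with the 5 chosen genes left out. Red diamonds pass in the paired fit, grey points do not, and black bars are list medians. The 4 diamonds of the NF-kB list lie above 0 at 4 h, and no gene of that list passes at 12 or 24 h.

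Of the NF-kB list, 30 of 55 genes were measured. At 4 h 20 of the 30 lay above 0, with a median change of 0.051 against -0.006 over all genes, and 4 rose in the paired fit, where 2.27% of all genes did: the monocyte chemokine Ccl2, the granulocyte growth factor Csf3, the stress-response gene Ier3 and the TNF-induced gene Tnfaip2. None of the 4 passed unpaired. At 12 and 24 h 0 of the 30 passed in either fit, with medians of -0.017 and -0.038.

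Ccl2 read 1.70, 2.25 and 2.57 at 4 h, against 1.39, 1.46 and 1.97 in controls. It was higher by 0.57 (paired SE 0.132, adjusted p 0.034 paired and 0.75 unpaired) in 3 of 3 pairs, and by 0.02 at 12 h. The groups overlapped at 4 h, as the highest control array lay above the lowest 4 h array. Ier3 read 1.53, 1.89 and 1.95 at 4 h, against 0.70, 1.32 and 1.79 in controls, and was higher by 0.52 (SE 0.103, adjusted p 0.0164 paired and 0.792 unpaired). Tnfaip2 read 0.82, 1.28 and 1.14 at 4 h, against 0.77, 0.83 and 0.69 in controls, higher by 0.32 (SE 0.0755, adjusted p 0.0357 paired and 0.387 unpaired). Csf3 read 0.04, 0.09 and -0.03 at 4 h, against -0.23, -0.14 and -0.19 in controls, higher by 0.22 (SE 0.0489, adjusted p 0.0273 paired and 0.214 unpaired), with no overlap. All 4 were, like Tnfaip3, above control in each pair at 4 h and within 0.21 of it on average at 24 h. Since the 4 were named for passing as higher at 4 h, and Tnfaip3 was chosen for its course, the likeness at 4 h follows from the choice.

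These calls rested in part on single arrays. The paired call of Ier3 was lost when control array 2 (adjusted p 0.0756) or 4 h array 2 (0.0695) was missing. The call of Csf3 was lost on dropping control array 1 (0.0645), control array 2 (0.0758), 4 h array 1 (0.0599), 4 h array 2 (0.11), 4 h array 3 (0.0646) or 12 h array 3 (0.0533). For Ccl2 the arrays whose absence ended the call were control 2 (0.121), control 3 (0.0753), 4 h 1 (0.0584), 4 h 2 (0.0996), 4 h 3 (0.144), 12 h 3 (0.0557), 24 h 1 (0.0507) and 24 h 2 (0.0521). For Tnfaip2 they were control 2 (0.146), control 3 (0.107), 4 h 2 (0.145), 4 h 3 (0.159), 12 h 1 (0.055), 12 h 2 (0.057), 12 h 3 (0.062), 24 h 2 (0.0563) and 24 h 3 (0.0587). With all arrays of a replicate number left out, Ier3 missed the threshold without number 1 (0.098) or 2 (0.216), Ccl2 without number 2 (0.154) or 3 (0.219), and Tnfaip2 without number 2 (0.363) or 3 (0.269). Csf3 missed it without number 1 (0.135), 2 (0.236) or 3 (0.121). None of the 4 changed sign in these fits.

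**Figure D5:**
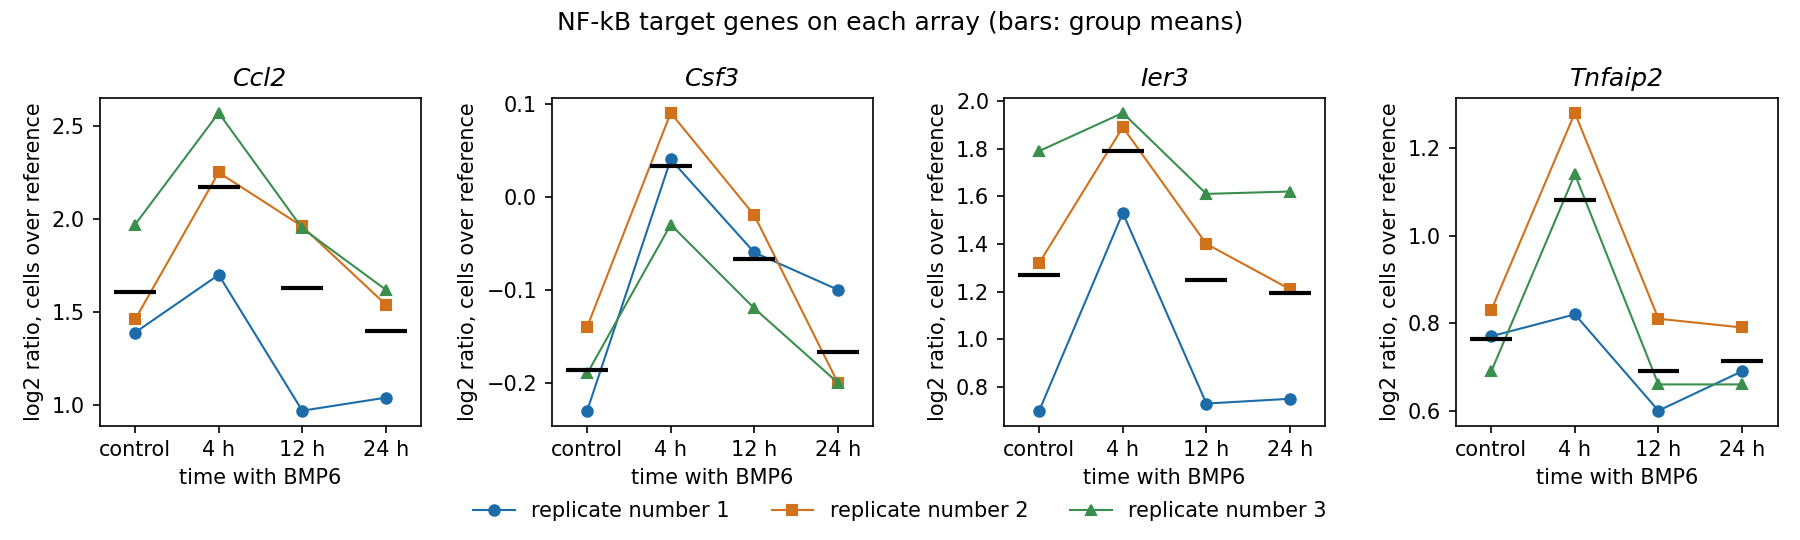
Log2 ratio of cells to reference RNA (y axis, a different scale in each panel) for the 4 NF-kB list genes that rose in the paired fit at 4 h, in control cells and after 4, 12 and 24 h of BMP6 (x axis). Lines join arrays of the same replicate number and bars are group means. Every line is highest at 4 h, with means of 2.17 for Ccl2, 0.03 for Csf3, 1.79 for Ier3 and 1.08 for Tnfaip2.

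Other NF-kB genes did not pass at 4 h. Nfkbia, the inhibitor that NF-kB itself induces, stood at 0.23 (adjusted p 0.0911 paired and 0.704 unpaired) in 3 of 3 pairs. The growth factor Csf2 stood at 0.34 (0.0725 and 0.274) in 2 of 3 pairs. Irf1, which is on this list and on the interferon list, had the lowest 4 h change of the 30. It stood at -0.18 (0.122 and 0.704), with pairs at -0.06, -0.18 and -0.31. A p that misses the threshold does not show that a gene was steady. Icam1, Cxcl1 and Il6 have no named probe in the annotation used here.

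Among leukocyte adhesion genes, the group Vcam1 belongs to, 18 of 24 were measured. In the paired fit 3 of the 18 rose at 4 h, where 2.27% of all genes did. They were Vcl by 0.77 (SE 0.0826, adjusted p 0.000987), Cd44 by 0.47 (SE 0.0667, 0.00354) and Msn by 0.32 (SE 0.0566, 0.00982). Vcl encodes a cytoskeletal protein of adhesion sites, Cd44 a hyaluronan receptor and Msn a linker of membrane to actin, and none is an endothelial capture receptor like Vcam1. Vcl also rose in the unpaired fit (0.0366), while Cd44 (0.0632) and Msn (0.172) did not pass. The unpaired call of Vcl was lost on dropping control array 1 (0.0765), control array 2 (0.153), control array 3 (0.0912), 4 h array 2 (0.222), 4 h array 3 (0.179), 12 h array 2 (0.0564) or 24 h array 2 (0.066). The paired calls of Vcl and Cd44 passed without each single array in turn, and that of Msn was lost on dropping control array 2 (0.0508). With all 4 arrays of replicate number 2 left out, the paired calls of Vcl (0.0764) and Cd44 (0.134) were lost, and that of Msn was lost without number 1 (0.0812), 2 (0.137) or 3 (0.055). The unpaired call of Vcl was lost without number 1 (0.0555), 2 (0.675) or 3 (0.327).

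At 12 h, when Vcam1 was lowest, 0.472% of all genes passed as higher in the paired fit. The adhesion list held 1 paired call, Msn at 0.26 (adjusted p 0.0489). It passed with 1 array left out only without control replicate 3, and otherwise had an adjusted p from 0.0578 to 0.219. It was lost without replicate number 1 (0.318), 2 (0.347) or 3 (0.0866). The list's median change was -0.014 at 12 h, against -0.002 over all genes.

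The interferon-induced list, relatives of Tgtp1, had 22 of 44 genes measured. Besides induced genes it holds interferon receptors and their kinases (Ifngr1, Ifnar1, Jak1 and Jak2). In the paired fit 1 of the 22 rose at 4 h, where 2.27% of all genes did. It was the interferon and cytokine receptor kinase Jak2, higher by 0.30 (SE 0.0478, adjusted p 0.00605 paired and 0.75 unpaired), and it passed without each single array in turn. The call was lost with every array of replicate number 1 (0.0604), 2 (0.14) or 3 (0.0508) left out. At 12 h, when Tgtp1 was at its lowest, 0 of the 22 passed in either fit. In the paired fit 0.472% of all genes passed as higher at 12 h and 1.42% as lower. Of the 22, 5 lay above 0, and the median was -0.061, against -0.002 over all genes. Their changes at 12 h ran from -0.27 to 0.06, against -1.21 for Tgtp1. Tgtp1 had the lowest change of all 8267 genes at that time. Every listed gene therefore had to lie above it, and nothing is read from the distance. The transcription factor Irf1 stood at -0.18, -0.20 and -0.22 at 4, 12 and 24 h, with paired adjusted p-values of 0.122, 0.154 and 0.358. Ifit2, an interferon-induced gene, stood at -0.15 at 4 h (0.179 paired).

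The acute phase list, relatives of Lbp, was drawn up, like the others, with earlier results of these data known. The share of all genes passing as lower in the paired fit at 12 h was 1.42%. The list had 8 of its 21 genes measured. At 12 h 2 fell in the paired fit: the complement protease C1s1 by 0.47 (log2; SE 0.0757, adjusted p 0.0145 paired and 1.0 unpaired) and Cebpd, a transcription factor of the acute phase, by 0.44 (SE 0.0909, 0.0433 and 1.0), both lower in 3 of 3 pairs. The paired call of C1s1 was lost on dropping control array 2 (0.0989), 12 h array 1 (0.0531) or 12 h array 2 (0.0635), and without replicate number 1 (0.104), 2 (0.214) or 3 (0.0632). That of Cebpd held with 1 array left out only without 4 h replicate 2 or 3, and otherwise the adjusted p ran from 0.0501 to 0.176. It too was lost without replicate number 1 (0.274), 2 (0.214) or 3 (0.0712). At 4 and 24 h 0 of the 8 passed. Cebpb and Il6st, the shared signalling chain of IL-6 family receptors, each stood at 0.17 at 4 h (0.16 and 0.407 paired).

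Lipopolysaccharide recognition genes had 9 of 22 measured and 0 passed at any time in either fit, with changes from -0.14 to 0.13 over the 3 times. Irak2 and the adaptor Tirap each stood at 0.12 at 4 h, and the lipid transfer protein Pltp, a relative of Lbp, at -0.13. Cd14 and Tlr4, which act with Lbp, have no named probe here. Of 14 measured genes of the apoptosis inhibitor and caspase list, 0 passed at any time in either fit. The caspase Casp6 came closest at 4 h, at -0.30 (adjusted p 0.0523 paired and 0.842 unpaired), and the survival factor Mcl1 stood at 0.12.

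Genes with the course most like each of the 5 were found by the root-mean-square difference over the 12 arrays after each gene's own mean was subtracted. The measure also counts the offsets between replicate numbers. For Vcam1, whose own spread on this measure was 0.55, they were C1s1 at 0.20, Lbp at 0.227 and Renbp at 0.268. These changed by -0.47, -0.79 and -0.24 at 12 h, against -0.80 for Vcam1. For Lbp (0.444) they were the cholesterol exporter Abca1 at 0.16, Cebpd at 0.19 and C1s1 at 0.194, which changed by -0.44, -0.44 and -0.47 at 12 h, against -0.79 for Lbp. For Tgtp1 (0.486) they were Mgst1 at 0.268, Aldh1a1 at 0.28 and Cyp39a1 at 0.282, which changed by -0.78, -0.61 and -0.89 at 12 h. For Tnfaip3 (0.204) they were the kinase Plk2 at 0.0875, Phlda1 at 0.0889 and Nav3 at 0.0956, which were higher at 4 h by 0.36, 0.51 and 0.46. For Birc3 (0.133) they were the interferon-induced GTPase Gbp2 at 0.0765, Usp27x at 0.0857 and St3gal1 at 0.0865, which changed by -0.27, -0.17 and -0.09 at 12 h. The Birc3 course used here is the average of 2 probes that did not move alike, and is that of neither. With the mean of each replicate number subtracted as well, a setting added after the data had been examined, Lbp was nearest to both Vcam1 (0.172) and Tgtp1 (0.195), and Plk2 was again nearest to Tnfaip3 (0.0691). Of the neighbours named above, only Lbp (for Vcam1), Mgst1 (for Tgtp1) and Plk2 (for Tnfaip3) were again among the 3 nearest in that setting. All 3 neighbours of Lbp and all 3 of Birc3 were replaced, and C1s1 was no longer among those of Vcam1. The likeness is a description of 12 arrays that share controls and replicate numbers. Changes printed for the neighbours come from the arrays that picked them, so their likeness to the 5 follows from the choice.

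Markers of cell types were read beside these courses. The 5 measured endothelial markers (Pecam1, Cdh5, Kdr, Flt1 and Esam, of 10 listed) all had mean ratios below 0 in each group, from -1.80 for Pecam1 at 24 h to -0.27 for Flt1 at 4 h. Their summed level ran from -5.32 to -5.04 in controls, -5.61 to -5.02 at 4 h, -6.26 to -5.28 at 12 h and -6.70 to -5.43 at 24 h. In the paired fit 1 of the 5 rose at 4 h, Flt1 by 0.23 (adjusted p 0.0366), where 2.27% of all genes rose. For leukocytes 3 of 10 markers were measured (Ptprc, Cd79a and Lyz2), with 0 passing and sums from -2.55 to -2.45 in controls, -2.96 to -2.26 at 4 h, -3.34 to -2.02 at 12 h and -4.29 to -2.46 at 24 h. For fibroblasts 4 of 8 were measured (Col1a1, Col1a2, Pdgfrb and Prrx1), with sums from 0.48 to 2.84 in controls, -0.39 to 2.06 at 4 h, 0.12 to 1.82 at 12 h and 0.44 to 2.34 at 24 h. In the paired fit 1 of those 4 fell, Prrx1, by 0.49 at 4 h and 0.50 at 12 h on the log2 scale (adjusted p 0.00754 and 0.0173). Of all genes, 3.75% and 1.42% passed as lower at 4 and 12 h. The part of these markers in the courses of the 5 genes was not tested.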

How the data were processed

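RNA of 12 samples was hybridised to two-colour Agilent arrays, which were scanned and quantified by the authors and normalized with a modified local quantiles method, per the labels. The deposited values are taken as log2 ratios of Cy5 (cells) over Cy3 (reference RNA), although no source used here gives the base or the sign. They were used as deposited, without further normalization, and precision is limited by there being 3 arrays a group.

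Of 20280 deposited rows, 10576 probes with 1 symbol name 8267 genes. Probe numbers were placed on the rows by the recovered order of a grid of 22575 positions, on which all 11083 listed numbers meet a value. Symbols of 10548 probes were updated through gene identifiers in RefSeq's GRCm38.p6 gene table. Probes of a gene were averaged.

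limma 3.58.1 in R 4.3.3 (lmFit, eBayes, two-sided) was fitted to all 12 arrays without a replicate block (unpaired) and, as an alternative, with the replicate number as a block (paired). Deviations from group means correlated at 0.443 to 0.695 for the 18 array pairs that share a title number. For pairs of different numbers from different groups they correlated at -0.564 to 0.0689. Because deviations cancel within a group, positive values in the first range force negative ones in the second, which adds no separate support. Since each of the 18 exceeded 0.1, arrays were treated as paired by title number. The fits were tested on simulated data. Alternatives were quantile normalization, median centring, 2-group fits, leaving out arrays, single probes and the methods' t-test.

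The 5 genes, the lists and the tests were chosen with earlier results of these data known. Named genes were the 5, the 3 nearest to each by root-mean-square difference, list genes passing in either fit, the 3 of each list with the smallest unadjusted p at 4 h, and a few fixed relatives. Pecam1, Cdh5, Kdr, Flt1, Esam, Prrx1 and the other markers came from fixed marker lists.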

Additional observations from a re-analysis of the deposited data

Results flagged for a closer look

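Changes that differed between times are given here for named genes of the 6 lists. They passed the contrast between the 2 times in the paired fit (limma, adjusted p under 0.05). In each case no such difference passed in the unpaired fit. Control arrays do not enter the differences themselves, but they are part of the fit that sets the spread and the adjusted p. Each of these genes had also been called against control, from the same 4 or 12 h arrays. The direction was thus favoured by that choice, and the share of all genes that pass these contrasts is not given. Between 24 h and 4 h, Ccl2 was lower by 0.77 on the log2 scale (-0.77, adjusted p 0.0109), Ier3 by 0.60 (-0.60, 0.0113), Tnfaip2 by 0.37 (-0.37, 0.024) and Csf3 by 0.20 (-0.20, 0.0477), each in 3 of 3 pairs. The adhesion genes Vcl (-0.72, adjusted p 0.00286), Cd44 (-0.34, 0.0206) and Msn (-0.31, 0.0157) and the kinase Jak2 (-0.31, 0.00785) were lower at 24 h than at 4 h as well. Between 12 h and 4 h, Vcl (-0.77, adjusted p 0.00442), Ier3 (-0.55, 0.0411), Tnfaip2 (-0.39, 0.043), Jak2 (-0.36, 0.0159) and C1s1 (-0.40, 0.0411) were lower at 12 h.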

How the results depend on the processing

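With the replicate block, genes called at 4, 12 and 24 h numbered 498, 156 and 14, against 14, 0 and 0 in the unpaired fit, and listed relatives called numbered 8, 3 and 0, against 1, 0 and 0. The block left every change as it was, because each group holds each number once. After quantile normalization 27 genes passed at 4 h and 1 at 12 h. With only the control arrays and those of 4 h in the fit 0 genes passed, and the methods' t-test, adjusted, called 0 genes at 4 h and 1 at 12 h, with 474, 297 and 175 genes at an unadjusted p under 0.05 at 4, 12 and 24 h. Relatives called at 4 h were 0 in the 2-group fit, 0 by the t-test and 2 when probes were tested singly.

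With arrays left out in turn or by replicate number, genes called at 4 h ranged from 0 to 51 unpaired (51 without 4 h replicate 1) and up to 642 paired, a setting added after the data had been examined, where 20 passed without replicate number 2. At 12 h they ranged from 0 to 1 unpaired and up to 288 paired (288 without control replicate 3, 3 without replicate number 2), and at 24 h from 0 to 16 (16 paired without 4 h replicate 1). Relatives called ranged from 0 to 10 at 4 h (10 paired without control replicate 1), from 0 to 4 at 12 h and stayed at 0 at 24 h.

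Leaving out arrays, the 12 h change ran from -1.09 to -0.44 for Vcam1, -1.39 to -1.06 for Tgtp1, -1.04 to -0.54 for Lbp and -0.31 to -0.19 for Birc3. At 4 h Vcam1 ran from -0.38 to 0.19, Tgtp1 from -0.79 to -0.47, Lbp from -0.59 to -0.12 and Tnfaip3 from 0.34 to 0.53. At 24 h Vcam1 ran from -0.42 to 0.15, so single arrays left out turned its direction at 4 and 24 h in the unpaired fit, where they unbalance the replicate numbers. With whole numbers left out it stayed below control, at -0.16 to -0.06 at 4 h and -0.14 to -0.13 at 24 h. Read from a single probe, the Birc3 change was 0.02 or -0.55 at 12 h and 0.03 or -0.16 at 24 h. Il6st at 4 h ran from -0.02 (without control replicate 3) to 0.39. The causes were not tested. Of the alternative settings for single named relatives and Id genes, 627 kept the direction and the side of the threshold, 20 gained a call, 12 lost it and 1 reversed. This count is taken against the unpaired fit, where Vcl at 4 h was the only one of these genes called. Keeping the side of the threshold therefore mostly meant staying uncalled. The paired fits with arrays left out, in which many paired calls were lost, are not part of this count.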
